A study of Mus musculus with 11 samples.

Results

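Collagens are the main structural proteins of the extracellular matrix. Triple helices are wound from products of the same gene or of partner genes, trimmed and cross-linked after secretion, and laid down as fibrils (types I, III and V), as basement membrane networks (type IV), as beaded filaments (type VI) or on the surface of fibrils (types XII, XIV and XVI, the fibril-associated or FACIT collagens). In muscle they form the connective tissue between fibres and the basement membrane around each fibre, and cultured myoblasts make many of them. The collagen genes were taken as every symbol of the expression tables written Col, a type number, a and a chain number. This rule found 43 of 20368 gene symbols, and used no measured value. Fibrillar collagens made up 11 of them, basement membrane collagens 8 (the 6 type IV chains with Col15a1 and Col18a1) and other collagens 24.

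The samples analysed here were made in C2C12, an established mouse myoblast line of C3H origin that fuses into myotubes when serum is withdrawn. The series asked how MyoD and MyoG, the transcription factors of muscle differentiation, and RNA made at enhancers act in that programme. PolyA RNA-seq was made from 4 libraries at 4 h in differentiation medium with 2% horse serum. DRRi cells had RNAi against the RNA of the DRR, the distal regulatory region upstream of Myod1, and GFPi cells had RNAi against GFP. The pHAN_DRR1.2 cells overexpressed DRR RNA from the pHAN vector, and pHAN_GFP cells overexpressed GFP from it. ChIP-seq gave MyoG peaks in myotubes at 48 h of differentiation, and MyoD peaks and H3K4me1 domains, regions of a histone mark typical of enhancers, in myotubes and in proliferating myoblasts kept in 10% fetal bovine serum. Each group held 1 library, so no value has a replicate error and no difference has a replicate check. The sources used here do not say how RNAi and overexpression were delivered, and all groups analysed here come from 1 cell line. The remaining 2 samples of the 11, ribosome-depleted RNA of myotubes and of activated satellite cells, were not analysed here.

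Expression is given as FPKM (fragments per kilobase of sequence, scaled to library size), summed over the coding sequences of a gene. A change is the log2 ratio of FPKM plus 1, so differences of genes near 1 FPKM come out smaller than their plain ratio. It was computed where both conditions of a table averaged at least 1 FPKM, and a gene was counted as higher or lower at 1.5-fold or more on that scale. A gene can pass this filter through 1 condition alone, so the counts below are over the genes kept and not over all collagens. The tables were normalized separately, so levels of DRRi and GFPi stand beside those of pHAN_DRR1.2 and pHAN_GFP without a fold between them. The 2 comparisons share no library. The sources used here do not give the read depth of any RNA library.

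All 7 genes of the myoblast marker list (Myod1, Myf5, Des, Cdh15, Itga7, Chrnd and Myog) were above 1 FPKM in every library. Their summed level was 411 FPKM in DRRi and 498 FPKM in GFPi, and 1027 FPKM in pHAN_DRR1.2 and 800 FPKM in pHAN_GFP. Des led the sum, at 231 FPKM in DRRi and 267 FPKM in GFPi, and 577 FPKM in pHAN_DRR1.2 and 460 FPKM in pHAN_GFP. The sum hides wider differences of genes at lower level. Myog stood at 2.61 FPKM in DRRi and 10.2 FPKM in GFPi, and at 65.8 FPKM in pHAN_DRR1.2 and 26.3 FPKM in pHAN_GFP. Chrnd stood at 3.74 FPKM in DRRi and 17.5 FPKM in GFPi, and at 13.3 FPKM in pHAN_DRR1.2 and 7.75 FPKM in pHAN_GFP. Myf5 alone went against the sum in DRRi, at 18.4 FPKM against 15.1 FPKM in GFPi. In pHAN_DRR1.2 Myod1 alone did, at 65.6 FPKM against 68.9 FPKM in pHAN_GFP. Of 8 fibroblast markers, 7 were under 1 FPKM in DRRi and in GFPi, 6 in pHAN_DRR1.2 and 5 in pHAN_GFP, with Tcf21 at 0 in all 4 libraries and Lum and Thy1 at 0.03 FPKM or less. The summed fibroblast list stood at 7.36 FPKM in DRRi and 9.27 FPKM in GFPi, and at 15.1 FPKM in pHAN_DRR1.2 and 9.93 FPKM in pHAN_GFP. Twist2 led it at 6.47 FPKM in DRRi and 8.11 FPKM in GFPi, and Dcn, a fibril-binding proteoglycan, stood at 7.78 FPKM in pHAN_DRR1.2 and 3.02 FPKM in pHAN_GFP. Osteoblast and chondrocyte markers summed to 8.51 FPKM in DRRi and 6.44 FPKM in GFPi, and to 16.4 FPKM in pHAN_DRR1.2 and 13.1 FPKM in pHAN_GFP, nearly all of it Sox9. The 4 endothelial markers together stayed at 0.12 FPKM or less. Of the smooth muscle markers, Acta2 was high in every library (637 FPKM in DRRi, 475 FPKM in GFPi, 1791 FPKM in pHAN_DRR1.2 and 2024 FPKM in pHAN_GFP), and Myh11 was at 0.06 FPKM or less. Cnn1, a smooth muscle calponin, stood at 2.89 FPKM in DRRi and 1.41 FPKM in GFPi, and at 7.76 FPKM in pHAN_DRR1.2 and 17.3 FPKM in pHAN_GFP. Of the blood cell markers, Cd68 stood at 1.70 FPKM in DRRi and 2.52 FPKM in GFPi, and at 2.17 FPKM in pHAN_DRR1.2 and 1.58 FPKM in pHAN_GFP, and Ptprc at 0.0164 FPKM or less. The part of any of these marker levels in the collagen values below was not tested. In such bulk samples, fewer cells of a type and less RNA per cell cannot be told apart.

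The collagen genes above the filter were largely the same in both tables. A mean of 1 FPKM or more was reached by 17 collagens in the DRRi and GFPi table and by 19 in the pHAN table, and the same 17 were kept in both. Of all 20368 symbols, 51.9% were kept in the DRRi and GFPi table and 52.5% in the pHAN table, a larger share than of the 43 collagens. Col14a1 and Col27a1 were kept in the pHAN table alone. The other 24 collagens, among them the cartilage types II, IX and XI, the type IV chains of specialised membranes such as Col4a3 and Col4a4, and Col15a1, were under the filter in both tables. The highest FPKM of any of these 24 in any library was 0.656, for Col7a1, the anchoring fibril collagen, in DRRi, and 3 of the 24 were listed at 0 in all 4 libraries.

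Col3a1 and Col1a2 led. Col3a1, the homotrimeric fibrillar collagen found with type I in stretchable tissue, stood at 160 FPKM in DRRi and 235 FPKM in GFPi, and at 397 FPKM in pHAN_DRR1.2 and 450 FPKM in pHAN_GFP. Col1a2, the alpha 2 chain of type I, stood at 240 FPKM in DRRi and 217 FPKM in GFPi, and at 268 FPKM in pHAN_DRR1.2 and 300.3 FPKM in pHAN_GFP. Among all genes Col1a2 ranked 226 in DRRi and 268 in GFPi, and Col3a1 ranked 379 in DRRi and 240 in GFPi. The next most abundant collagens by the mean of the 4 libraries were Col5a2, Col12a1, Col6a1, Col6a3, Col5a1 and Col4a1. These 8 genes carried 80.4% of the summed collagen FPKM in DRRi, 85.1% in GFPi, 83.1% in pHAN_DRR1.2 and 85.5% in pHAN_GFP.

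**Figure D1:**
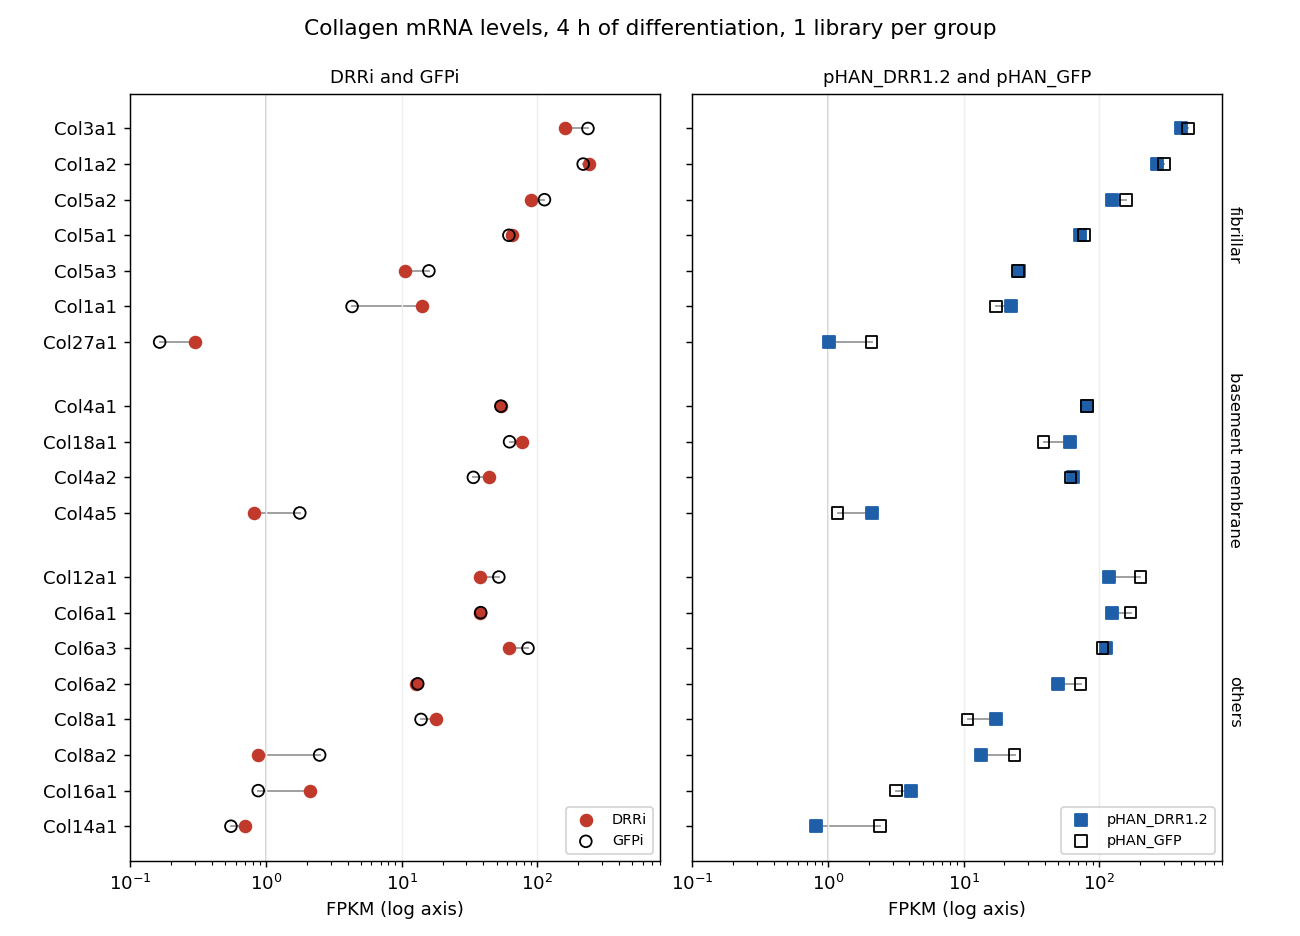
FPKM on a log axis of the 19 collagen genes kept in at least 1 table, ordered within fibrillar, basement membrane and other collagens, with 1 symbol per library (filled for DRRi and pHAN_DRR1.2, open for GFPi and pHAN_GFP). Most pairs of symbols lie close together; Col1a1 stands at 14.2 FPKM in DRRi against 4.32 FPKM in GFPi, and Col14a1 at 0.818 FPKM in pHAN_DRR1.2 against 2.43 FPKM in pHAN_GFP.

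The comparison of DRRi with GFPi asked what lowering the enhancer RNA of the DRR did to expression early in differentiation. Of the 17 collagens kept, Col1a1 and Col16a1 were higher in DRRi, Col4a5 and Col8a2 were lower, and 13 lay within 1.5-fold. Over all 10577 genes kept, 4.66% were higher and 3.5% were lower. The median log2 change of the collagens was -0.03, against 0.02 for all genes kept. At the authors' q-value under 0.05, their deposited table called 1 of the 17 collagens higher and 0 lower, where it called 0.643% of all genes kept higher and 0.577% lower. The sum over all 43 collagens was 928 FPKM in DRRi and 1007 FPKM in GFPi, which is 0.225% of all FPKM in DRRi and 0.251% in GFPi, and 0.922 as a ratio of DRRi over GFPi.

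Col1a1, the alpha 1 chain of type I and the partner of Col1a2, stood at 14.2 FPKM in DRRi against 4.32 FPKM in GFPi, a log2 change of 1.51. The authors' deposited table gives it a q-value of 0.000146. It was the one collagen called in that comparison. Col16a1, a FACIT collagen, stood at 2.11 FPKM in DRRi against 0.879 FPKM in GFPi (log2 change 0.73), with a q-value of 0.248 in the authors' deposited table. Col8a2, a chain of the network-forming type VIII, stood at 0.870 FPKM in DRRi against 2.49 FPKM in GFPi (-0.90), with a q-value of 0.0990 in the authors' deposited table. Col4a5, a basement membrane chain, stood at 0.825 FPKM in DRRi against 1.78 FPKM in GFPi (-0.61), with a q-value of 0.485 in the authors' deposited table. Col4a5, Col8a2 and Col16a1 each lay under 1 FPKM in 1 of the 2 libraries. With 1 FPKM or more asked of each condition, a filter added after seeing the data, 1 collagen remained higher, Col1a1, and 0 remained lower.

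Of the 11 fibrillar collagens 6 were kept, and those other than Col1a1 stayed within 1.5-fold in DRRi. Col3a1 lay just inside that limit, with a log2 change of -0.56, as did Col5a3, a minor chain of type V, at 10.7 FPKM in DRRi against 15.9 FPKM in GFPi (-0.53). Col5a2, the alpha 2 chain of type V that helps set fibril diameter, stood at 89.5 FPKM in DRRi against 113 FPKM in GFPi (-0.33), and its partner Col5a1 at 65.3 FPKM in DRRi against 61.6 FPKM in GFPi (0.08). Col1a2 was at a log2 change of 0.14. The group held 3 genes above 0 and 3 below, with a median of -0.12. All 17 collagens kept held 7 above 0 and 10 below, against 53.5% above and 46.5% below over all genes kept.

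Of the basement membrane collagens 4 of 8 were kept, with a median log2 change of 0.14 in DRRi. It was -0.0044 with types XV and XVIII set among the other collagens, -0.0078 with no filter on low values and 0.29 at a mean of 5 FPKM or more. Col4a1 and Col4a2, which pair to form the common type IV network, stood at 53.6 and 43.9 FPKM in DRRi against 53.8 and 33.7 FPKM in GFPi, changes of -0.00 and 0.37. Col18a1, a basement membrane proteoglycan whose end fragment is endostatin, stood at 76.5 FPKM in DRRi against 62.3 FPKM in GFPi (0.29). The other collagens had 7 of 24 kept and a median of -0.04. All 3 type VI chains kept lay below 0: Col6a3 stood at 62.0 FPKM in DRRi against 85.2 FPKM in GFPi (-0.45, and -0.20 with its most abundant coding sequence alone), while Col6a1, at 37.5 FPKM in DRRi against 38.2 FPKM in GFPi, and Col6a2, at 12.8 FPKM in DRRi against 13.1 FPKM in GFPi, were at -0.03 and -0.04. Col12a1, a FACIT collagen of tendon and muscle matrix, stood at 38.1 FPKM in DRRi against 52.0 FPKM in GFPi (-0.44).

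**Figure D2:**
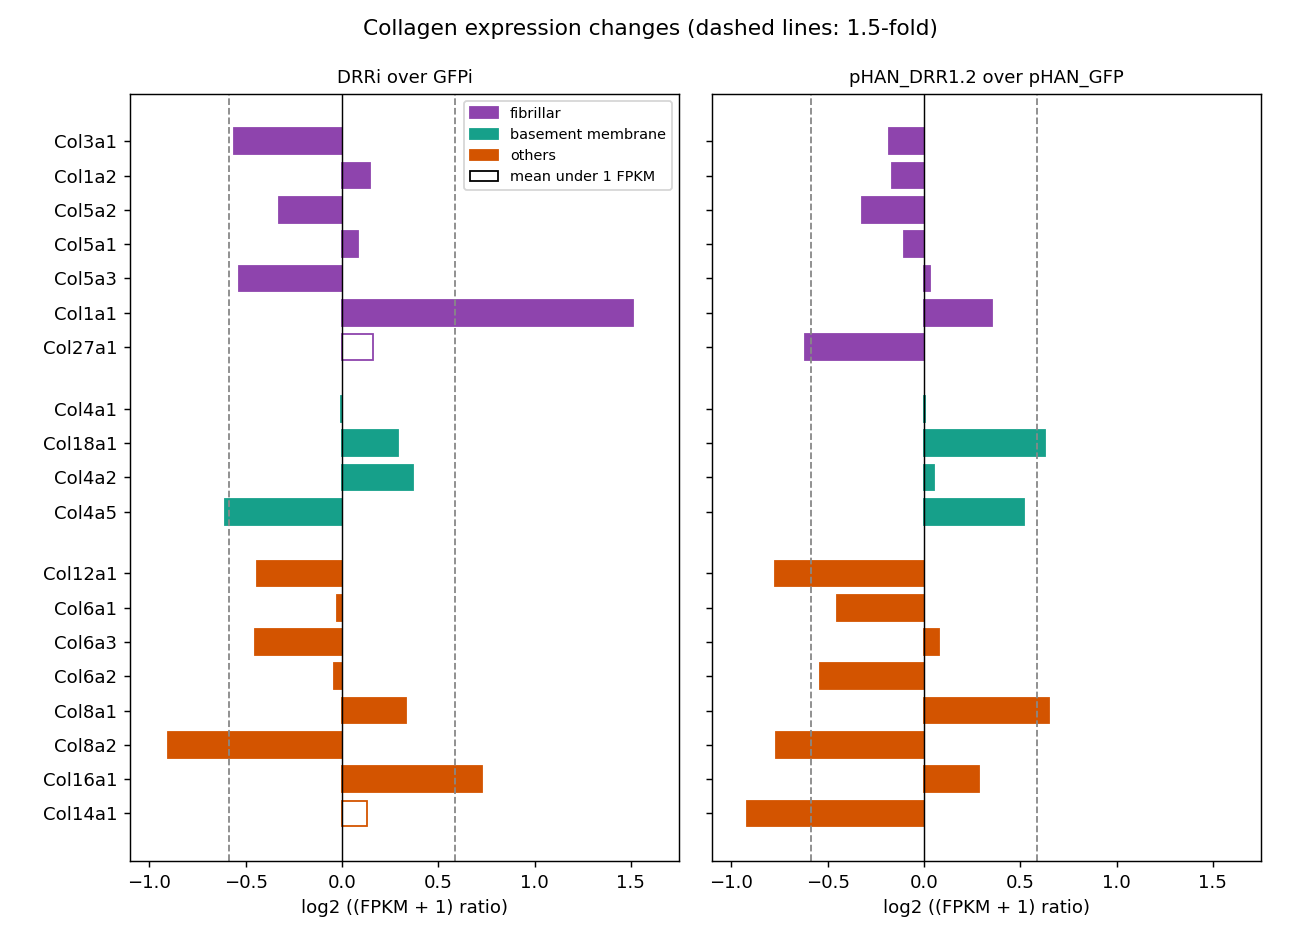
Log2 ratio of FPKM plus 1 for the 19 collagen genes kept in at least 1 table, DRRi over GFPi (left) and pHAN_DRR1.2 over pHAN_GFP (right), 1 library per group and no error bars; dashed lines mark 1.5-fold and open bars genes under a mean of 1 FPKM in that table. Col1a1 reaches 1.51 in DRRi, and in pHAN_DRR1.2 the bars past the lower line are Col27a1, Col12a1, Col8a2 and Col14a1.

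Overexpression of DRR RNA was the complementary comparison. Of 19 collagens kept, Col8a1 and Col18a1 were higher in pHAN_DRR1.2, Col8a2, Col12a1, Col14a1 and Col27a1 were lower, and 13 lay within 1.5-fold. Over all 10699 genes kept, 1.38% were higher and 0.654% were lower. The median log2 change of the collagens was -0.10, against 0.02 for all genes kept. The authors' deposited table called 2 collagens higher and 3 lower at a q-value under 0.05, where it called 1.03% of all genes kept higher and 0.589% lower. Summed collagen FPKM was 1559 in pHAN_DRR1.2 and 1802 in pHAN_GFP, which is 0.396% of all FPKM in pHAN_DRR1.2 and 0.470% in pHAN_GFP, and 0.865 as a ratio of pHAN_DRR1.2 over pHAN_GFP.

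The 4 lower collagens were 2 FACIT chains, a network chain and a minor fibrillar chain. Col14a1, a FACIT collagen that binds fibrils early in their growth, stood at 0.818 FPKM in pHAN_DRR1.2 against 2.43 FPKM in pHAN_GFP (log2 change -0.92), with a q-value of 4.32e-05 in the authors' deposited table. It passed the filter through pHAN_GFP alone. Col8a2 stood at 13.5 FPKM in pHAN_DRR1.2 against 23.8 FPKM in pHAN_GFP (-0.77), with a q-value of 0.00172 in the authors' deposited table. Col27a1, a fibrillar collagen of cartilage, stood at 1.03 FPKM in pHAN_DRR1.2 against 2.10 FPKM in pHAN_GFP (-0.61), with a q-value of 0.0168 in the authors' deposited table. Col12a1 had the largest difference in FPKM of these genes, at 117 FPKM in pHAN_DRR1.2 against 201 FPKM in pHAN_GFP (-0.77), and was not called, with a q-value of 0.0956 in the authors' deposited table. Without genes under a mean of 5 FPKM, Col8a2 and Col12a1 were the 2 that remained lower.

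The 2 higher collagens were Col8a1 and Col18a1. Col8a1, the partner chain of Col8a2 in type VIII, stood at 17.3 FPKM in pHAN_DRR1.2 against 10.7 FPKM in pHAN_GFP (0.65), with a q-value of 0.0164 in the authors' deposited table. Col18a1 stood at 60.7 FPKM in pHAN_DRR1.2 against 38.9 FPKM in pHAN_GFP (0.63), and its main coding sequence has a q-value of 0.0236 in the authors' deposited table. The type VIII chains had changes of opposite sign in both comparisons, with Col8a1 at 17.8 FPKM in DRRi against 13.9 FPKM in GFPi (0.33). The ratio of Col8a1 to Col8a2 in FPKM was 20.4 in DRRi and 5.58 in GFPi, and 1.28 in pHAN_DRR1.2 and 0.451 in pHAN_GFP. The ratio in DRRi rests on a Col8a2 level of 0.870 FPKM.

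By group, 7 of 11 fibrillar collagens were kept in the pHAN table, 2 above 0 and 5 below (55.6% and 44.4% over all genes kept), with a median log2 change of -0.16. Col3a1 was at -0.18, Col1a2 at -0.16 and Col5a2, with 125 FPKM in pHAN_DRR1.2 and 156 FPKM in pHAN_GFP, at -0.32. Col1a1 stood at 22.5 FPKM in pHAN_DRR1.2 against 17.4 FPKM in pHAN_GFP (0.35) and was not called, with a q-value of 0.757 in the authors' deposited table. All 4 basement membrane collagens kept were above 0, with a median of 0.28, or 0.05 with types XV and XVIII set among the other collagens or at a mean of 5 FPKM or more. Of these, Col4a1 (81.0 FPKM in pHAN_DRR1.2, 80.7 FPKM in pHAN_GFP) and Col4a2 (63.6 FPKM in pHAN_DRR1.2, 61.4 FPKM in pHAN_GFP) were nearly level at 0.00 and 0.05. Col4a5 stood at 2.12 FPKM in pHAN_DRR1.2 against 1.18 FPKM in pHAN_GFP (0.52). With types XV and XVIII set among the others, the basement membrane median was 0.05.

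The other collagens had 8 of 24 kept in the pHAN table, 3 above 0 and 5 below, with a median of -0.49. Their summed level was 439 FPKM in pHAN_DRR1.2 against 590 FPKM in pHAN_GFP, and that of the FACIT collagens 122 FPKM in pHAN_DRR1.2 against 207 FPKM in pHAN_GFP. Type VI, a beaded filament collagen whose defects cause muscular dystrophies in humans, was split among its chains. Col6a1 stood at 124 FPKM in pHAN_DRR1.2 against 170 FPKM in pHAN_GFP (-0.45) and Col6a2 at 49.9 FPKM in pHAN_DRR1.2 against 72.8 FPKM in pHAN_GFP (-0.54). Col6a3 stood at 111 FPKM in pHAN_DRR1.2 against 105 FPKM in pHAN_GFP (0.08). The deposited q-value of Col6a2 was 0.104 in the authors' table.

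Set side by side, the changes of the 17 collagens kept in both tables more often had the same sign than opposite signs, as did those of all genes. Col1a1, Col4a2, Col8a1, Col16a1 and Col18a1 were above 0 in both comparisons, and 6 were below 0 in both, Col8a2 and Col12a1 among them. The signs were opposite for 6 of 17 (35.3%), against 45.3% of the 10398 genes kept in both tables. Some of these changes were very small, such as Col4a1 at -0.0044 in DRRi and 0.0046 in pHAN_DRR1.2, counted as opposite. Col8a2 was the collagen past 1.5-fold in both comparisons, lower in each, at -0.90 in DRRi and -0.77 in pHAN_DRR1.2. In the first comparison it passed the filter through GFPi alone, at 0.870 FPKM in DRRi against 2.49 FPKM in GFPi. It was not called there in the authors' deposited table. In DRRi the summed myoblast markers were lower than in GFPi, though Myf5 was higher. In pHAN_DRR1.2 the summed markers were higher than in pHAN_GFP, though Myod1 was lower. Their part in these signs was not tested.

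The 2 chains of type I stood at different levels in all 4 libraries. Type I is mostly built from a pair of Col1a1 chains with a single Col1a2 chain. In FPKM, Col1a2 exceeded Col1a1 by 17.0-fold in DRRi and 50.3-fold in GFPi, and by 11.9-fold in pHAN_DRR1.2 and 17.3-fold in pHAN_GFP. For the type IV pair the ratio of Col4a1 to Col4a2 was 1.22 in DRRi and 1.59 in GFPi, and 1.27 in pHAN_DRR1.2 and 1.31 in pHAN_GFP. Col6a1 exceeded Col6a2 by 2.94-fold in DRRi, 2.91-fold in GFPi, 2.49-fold in pHAN_DRR1.2 and 2.33-fold in pHAN_GFP. The sources used here do not say how the authors' counting treated each coding sequence. The Col1a1 locus is 15.6 kb long in the files, against 16.8 kb in RefSeq. The part of this in the FPKM of Col1a1 was not tested.

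Enzymes and other proteins that fold, carry, trim and cross-link collagen, here called the processing enzymes, lay mostly within 1.5-fold. Of 41 listed symbols, 35 were in the tables and 30 were kept. The symbols not in the tables are newer names of genes that were in them, such as P3h1 for Lepre1 and Colgalt1 for Glt25d1. In DRRi 2 were 1.5-fold or more higher, against 4.66% of all genes kept, and 1 was lower, against 3.5%, with a median log2 change of -0.04. Loxl2, a lysyl oxidase that cross-links collagen, stood at 11.3 FPKM in DRRi against 2.51 FPKM in GFPi (1.80), with a q-value of 2.41e-06 in the authors' deposited table. Leprel1, a prolyl 3-hydroxylase, stood at 2.20 FPKM in DRRi against 0.936 FPKM in GFPi (0.73), and Sec23a, a coat protein of the vesicles that carry procollagen out of the endoplasmic reticulum, at 19.8 FPKM in DRRi against 32.8 FPKM in GFPi (-0.70). Neither was called in the authors' deposited table, with q-values of 0.518 and 0.345. Serpinh1, the collagen chaperone HSP47, was nearly level at 493 FPKM in DRRi and 488 FPKM in GFPi. In pHAN_DRR1.2, 0 of the 30 genes kept were past 1.5-fold in either direction, against 1.38% of all genes higher and 0.654% lower, with a median of -0.05. The authors' deposited table called 0 of the 30, against 1.03% of all genes kept higher and 0.589% lower.

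Of 24 collagen receptors and regulators, 17 were kept in the DRRi table, 2 were 1.5-fold or more higher, against 4.66% of all genes kept, and 0 were lower, against 3.5%, with a median of -0.04. Ctgf, a matrix protein induced by TGF-beta, stood at 8.24 FPKM in DRRi against 2.70 FPKM in GFPi (1.32), with a q-value of 0.0229 in the authors' deposited table. Tgfb2, a TGF-beta ligand, stood at 10.2 FPKM in DRRi against 6.40 FPKM in GFPi (0.60), with a q-value of 0.605 in the authors' deposited table. Among the receptors, Itgb1, the integrin subunit of all collagen-binding integrins, was at 146 FPKM in DRRi and 198 FPKM in GFPi (-0.43), and the collagen-binding kinase Ddr2 at 32.1 FPKM in DRRi and 32.8 FPKM in GFPi (-0.03). In pHAN_DRR1.2, 18 were kept, 0 were past 1.5-fold in either direction and 0 were called in the authors' deposited table, with a median of 0.02.

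MyoD and MyoG peaks lay near most collagen loci, with MyoG at a share not far above that of long loci. A MyoG peak in myotubes lay within 10 kb of 31 of 43 loci (72.1%), against 53.3% of all loci and 64.3% of loci at least as long as the shortest collagen locus, Col1a1 (15.6 kb). A MyoD peak lay within 10 kb of 36 loci in myotubes and of 33 in myoblasts. In myotubes this was 83.7% of the collagens, against 56.4% of all 20216 loci counted and 67.5% of the loci of at least that length. In myoblasts it was 76.7% of the collagens, against 34.5% and 44.3% of those sets. Collagen loci run up to 416 kb, so peaks were also counted per 100 kb of locus and flanks. Collagens had 2.75 MyoD peaks per 100 kb in myotubes, against 2.40 over all loci and 2.24 over loci at least as long as Col1a1. In myoblasts they had 1.43, against 0.952 and 0.909. MyoG peaks numbered 2.21, against 2.12 and 1.98. The collagen densities include the Col4a1 and Col4a2 pair, and densities without that pair were not computed. With its flanks that pair held 10.7 MyoD peaks per 100 kb in myotubes, 6.28 in myoblasts and 10.7 MyoG peaks. Inside the locus lay 80.9% of the MyoG peaks, 81.7% of the MyoD peaks in myotubes and 78.4% of those in myoblasts. The loci themselves make up most of the length searched, so these shares do not show a concentration of peaks inside genes.

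Per 100 kb, MyoD peaks in myotubes numbered 3.73 at fibrillar, 3.58 at basement membrane and 2.05 at other collagens. MyoG peaks numbered 2.54 at fibrillar, 3.37 at basement membrane and 1.62 at other collagens. For MyoD in myotubes, single basement membrane members ran from 0 at Col4a5 to 7.44 at Col4a1 and 13.4 at Col4a2. More MyoD peaks in myotubes than in myoblasts were listed at 24 members, fewer at 5 (Col1a2, Col4a3, Col7a1, Col12a1 and Col22a1) and the same number at 14. The myotube list is the longer, with 39700 peaks against 18141, and over all loci 45.9% had more and 4.01% fewer. Col5a1 held 9 MyoD peaks and 7 MyoG peaks in myotubes and 0 MyoD peaks in myoblasts, although all 9 MyoD peaks lay in H3K4me1 domains of both stages. There was no MyoD or MyoG peak at 6 members, of which Col4a5 alone was expressed. Col5a3, Col6a1 and Col8a2 held 5, 3 and 4 MyoD peaks in myotubes and 0 MyoG peaks.

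**Figure D3:**
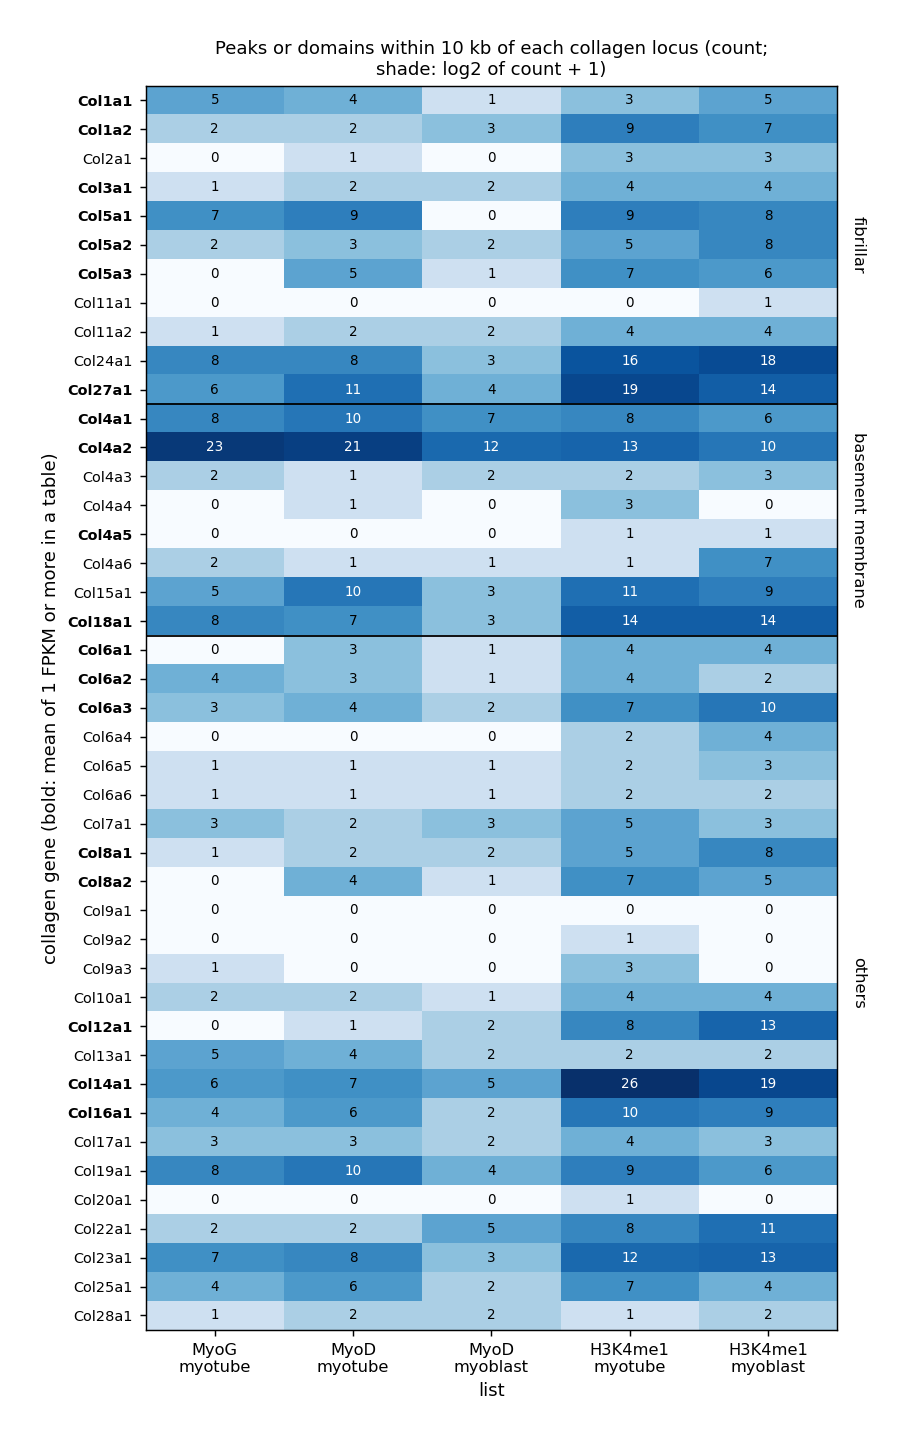
Number of MyoG and MyoD peaks and of H3K4me1 domains within 10 kb of each of the 43 collagen loci, 1 row per gene, 1 column per list, shaded by log2 of the count plus 1, with genes at a mean of 1 FPKM or more in a table in bold. Col4a2 stands out with 23 MyoG and 21 MyoD peaks in myotubes and 12 MyoD peaks in myoblasts.

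The 167 MyoD peaks at collagen loci in myotubes were shared with other lists about as often as the peaks of the whole list. Of these, 66 (39.5%) overlapped a MyoD peak in myoblasts by at least 1 bp, against 34.1% of the whole list, and 108 (64.7%) overlapped a MyoG peak, against 66.9%. Of 86 MyoD peaks in myoblasts, 65 (75.6%) overlapped one in myotubes, against 73.9% of the list. Of 134 MyoG peaks, 110 (82.1%) overlapped a MyoD peak in myotubes, against 77.6%. In H3K4me1 domains of myotubes lay 85.0% of the MyoD peaks at collagens in myotubes, the same share as in the whole list, and in domains of myoblasts lay 70.7% of them, against 61.6%.

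Of all collagens, Col4a2 had the most MyoD and MyoG peaks. Col4a1 (chromosome 8, 11198423 to 11312826, mm9, minus strand) and Col4a2 (chromosome 8, 11312829 to 11449287, plus strand) start 2 bp apart in the files and are transcribed away from each other. Summed over the MyoG list and both MyoD lists, Col4a2 had 56 peaks and Col4a1 25, followed by Col19a1 with 22, Col27a1 with 21 and Col24a1 with 19. Col14a1, Col15a1, Col18a1 and Col23a1 had 18 each. By peak number Col4a2 ranked 26 of 20216 loci for MyoG, 49 for MyoD in myotubes and 15 for MyoD in myoblasts. The pair with its flanks, 270.9 kb, held 29 MyoG peaks, 29 MyoD peaks in myotubes and 17 in myoblasts, and H3K4me1 domains covered 173 kb of it in myotubes and 166 kb in myoblasts. Peak scores are the authors' own and were used within a list only. The highest MyoD score in myotubes at the pair was 2768 (chromosome 8, 11348338 to 11349867, inside Col4a2), rank 735 of the list, and the highest MyoG score was 1671 (11381857 to 11383032, inside Col4a2), rank 433. In myoblasts the highest MyoD score was 2343 (11258223 to 11259615, inside Col4a1), rank 334.

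**Figure D4:**
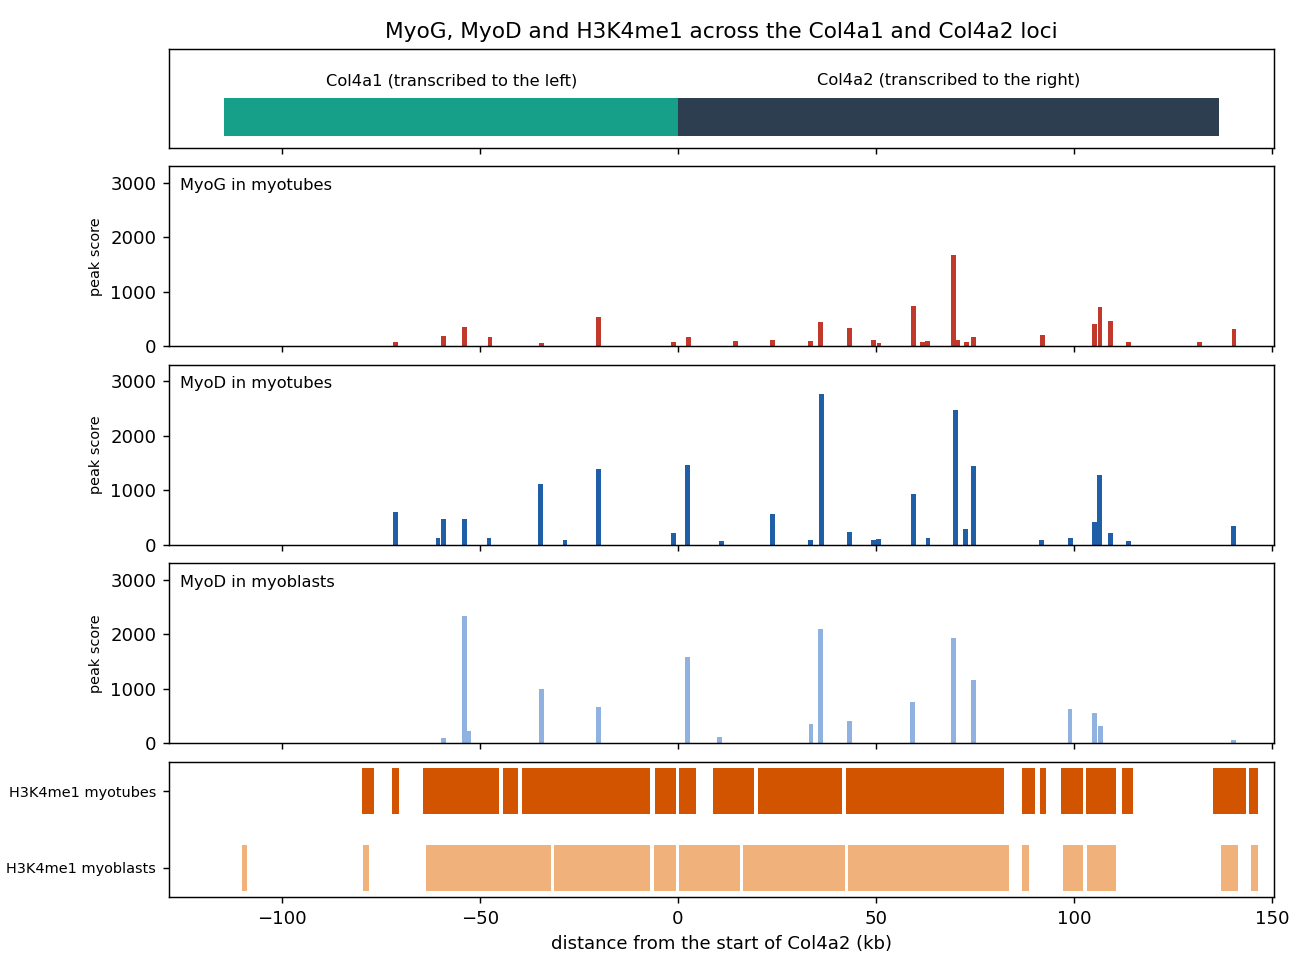
Peaks across Col4a1 and Col4a2 against the distance from the Col4a2 start in kb: the extent of both loci, the score of each MyoG peak in myotubes and of each MyoD peak in myotubes and myoblasts, and H3K4me1 domains as bars. The highest MyoD peaks in myotubes, up to a score of 2768, lie inside Col4a2, and H3K4me1 domains cover most of the middle of the region at both stages.

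Strong peaks were not confined to expressed collagens. Col15a1, a basement membrane collagen of muscle at 0.00557 FPKM in DRRi and 0.0558 FPKM in GFPi, and 0.144 FPKM in pHAN_DRR1.2 and 0.222 FPKM in pHAN_GFP, held a peak of high score in all 3 lists at the same place inside the locus (chromosome 4, 47306225 to 47307535 in mm9). Its score was 1643 for MyoG in myotubes, 2543 for MyoD in myotubes and 2659 for MyoD in myoblasts, rank 448, 890 and 229 of the lists. Col19a1, also under the filter, held a MyoD peak of score 2092 in myotubes (chromosome 1, 24477866 to 24478786). Expression was measured at 4 h and binding in myotubes at 48 h, so the values come from different stages. Among the collagens past 1.5-fold in pHAN_DRR1.2, Col18a1 held 8 MyoG peaks with a highest score of 644 (chromosome 10, 76592352 to 76593547), Col14a1 held 6 with a highest score of 797 (chromosome 15, 55187398 to 55188103), Col27a1 held 6, Col8a1 held 1, and Col8a2 and Col12a1 held 0. Col1a1, the collagen called in DRRi, held 5 MyoG peaks, 4 MyoD peaks in myotubes and 1 MyoD peak in myoblasts, with the highest MyoD score in myotubes at 380 (chromosome 11, 94789874 to 94790800), outside the locus.

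Peaks within 1 kb of the transcription start were fewer. Of the 35 members whose strand is given in the RefSeq promoter table, 8 had a MyoD peak there in myotubes (Col3a1, Col4a1, Col4a2, Col5a3, Col6a5, Col8a1, Col11a2 and Col24a1), 5 a MyoD peak in myoblasts (Col3a1, Col6a5, Col7a1, Col8a1 and Col11a2) and 4 a MyoG peak (Col4a1, Col4a2, Col6a5 and Col24a1). Over the 14280 loci with a strand in that table the shares were 20.6% for MyoD in myotubes, 7.65% for MyoD in myoblasts and 15.4% for MyoG in myotubes. MyoD and MyoG bind the E-box, CANNTG. A well-known form of it is CAGCTG. Another well-known form is CAGGTG, which reads as CACCTG on the opposite strand. These were searched on both strands in the RefSeq promoters of GRCm38.p6, 250 bases before to 50 after each start. An E-box of any form was in 20 of 38 collagen promoters (52.6%), against 72.3% of all 32851 promoters in the table, CAGCTG in 7 (18.4% against 16.3%) and CAGGTG or CACCTG in 5 (13.2% against 20.2%). Of the 9 promoters whose gene had a MyoD or MyoG peak within 1 kb of the start, 4 held CAGCTG. A match is a run of letters, and was not tested as a binding site.

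Of those 9, the promoters of Col6a5, Col7a1, Col8a1 and Col11a2 are not shown. That of Col6a5 holds CAGCTG and CACCTG, with a MyoD peak in myotubes of score 472, and that of Col8a1 holds CACCTG. The promoters of the other 5 genes are shown, each with a peak over or near the start, some with E-boxes and some without. Each runs 5′ to 3′ on the strand of its gene, with E-boxes in capitals, in GRCm38.p6: Col3a1 at chr1:45311288-45311587 (plus strand), Col5a3 at chr9:20815018-20815317 (minus), Col24a1 at chr3:145292222-145292521 (plus), Col4a1 at chr8:11312777-11313076 (minus) and Col4a2 at chr8:11312555-11312854 (plus). The windows of Col4a1 and Col4a2 overlap on opposite strands.
Col3a1: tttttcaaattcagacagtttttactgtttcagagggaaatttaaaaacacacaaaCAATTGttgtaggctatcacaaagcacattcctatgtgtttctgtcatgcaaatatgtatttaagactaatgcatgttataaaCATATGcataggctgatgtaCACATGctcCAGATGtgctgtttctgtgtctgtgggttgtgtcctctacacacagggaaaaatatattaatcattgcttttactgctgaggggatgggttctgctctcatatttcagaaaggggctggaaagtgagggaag
Col5a3: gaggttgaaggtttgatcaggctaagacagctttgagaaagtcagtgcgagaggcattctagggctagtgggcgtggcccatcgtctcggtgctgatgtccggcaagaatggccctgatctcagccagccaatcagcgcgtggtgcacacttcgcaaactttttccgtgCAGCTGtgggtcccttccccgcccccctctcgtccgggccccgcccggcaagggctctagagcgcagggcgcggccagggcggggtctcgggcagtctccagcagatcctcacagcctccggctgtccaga
Col24a1: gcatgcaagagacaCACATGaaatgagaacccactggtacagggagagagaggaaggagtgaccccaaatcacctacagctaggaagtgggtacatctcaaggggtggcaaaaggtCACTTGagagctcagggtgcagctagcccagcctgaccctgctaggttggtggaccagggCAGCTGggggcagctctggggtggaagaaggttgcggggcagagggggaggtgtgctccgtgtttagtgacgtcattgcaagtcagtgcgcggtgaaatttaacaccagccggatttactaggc
Col4a1: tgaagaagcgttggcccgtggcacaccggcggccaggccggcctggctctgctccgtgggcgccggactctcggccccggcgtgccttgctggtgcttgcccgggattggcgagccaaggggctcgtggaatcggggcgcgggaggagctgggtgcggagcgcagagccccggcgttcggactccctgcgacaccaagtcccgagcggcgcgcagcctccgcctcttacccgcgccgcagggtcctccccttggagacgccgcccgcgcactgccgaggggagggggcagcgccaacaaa
Col4a2: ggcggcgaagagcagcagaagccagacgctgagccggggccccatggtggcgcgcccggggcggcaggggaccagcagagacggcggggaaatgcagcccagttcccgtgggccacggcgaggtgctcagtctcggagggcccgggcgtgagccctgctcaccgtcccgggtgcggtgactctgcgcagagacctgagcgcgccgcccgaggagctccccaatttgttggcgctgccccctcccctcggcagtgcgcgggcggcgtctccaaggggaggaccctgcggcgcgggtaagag

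With the first base of the transcript counted as 1 and the base before it as -1, the Col3a1 promoter holds 4 E-boxes, CAATTG at -194, CATATG at -111, CACATG at -91 and CAGATG at -82, and none of the forms CAGCTG or CAGGTG. Its MyoD peak at the start was listed in myotubes (chromosome 1, 45368164 to 45368812 in mm9, score 240) and in myoblasts (45368301 to 45368895, score 161). The Col5a3 promoter holds 1 E-box, CAGCTG at -81, and its MyoD peak in myotubes had a score of 68.0 (chromosome 9, 20619324 to 20619966), near the lowest score the lists hold, 60. The Col24a1 promoter holds CACATG at -236, CACTTG at -134 and CAGCTG at -74. Col24a1 had a MyoD peak at the start of score 66.9 (chromosome 3, 144955198 to 144955747) and a MyoG peak of score 91.1 (144955253 to 144955798), both in myotubes, and was listed at 0.0617 FPKM in DRRi and 0.0288 FPKM in GFPi, and at 0.0473 FPKM in pHAN_DRR1.2 and 0.0997 FPKM in pHAN_GFP. The windows of Col4a1 and Col4a2 hold none of these letters. Their shared peaks, MyoG (chromosome 8, 11311483 to 11311966, score 85.1) and MyoD (11311297 to 11312079, score 215), lay on the Col4a1 side of the starts.

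H3K4me1 covered the collagens kept more widely than those under the filter. A domain lay within 10 kb of 41 collagen loci in myotubes, against 72.5% of all loci and 81.9% of those at least as long as Col1a1, and of 38 in myoblasts, against 74.1% and 83.5% of those sets. Over the 19 members kept in at least 1 table, domains covered a median of 33.6% of the locus and its flanks in myotubes and 35.1% in myoblasts. Over the other 24 members the medians were 4.79% in myotubes and 4.42% in myoblasts. All loci of at least the length of the shortest collagen locus showed the same order, with medians of 17.0% in myotubes and 15.0% in myoblasts for the 7022 expressed loci, and of 2.64% in myotubes and 2.74% in myoblasts for the 4190 others. Col4a2 was the most covered in myotubes (73.8%, and 70.7% in myoblasts), and Col4a5, although expressed, was at 0.684% in myotubes and 0.770% in myoblasts. Genes are not independent replicates, and no test was made of these differences.

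Between stages, 17 collagens had more of their locus covered in myotubes than in myoblasts, 25 had less and 1 was equal, whereas over all loci 41.5% had more and 34.0% less. Coverage was higher in myotubes at Col6a1 (65.6% in myotubes, 43.7% in myoblasts), Col6a2 (25.1% in myotubes, 10.8% in myoblasts), Col15a1 (52.4% in myotubes, 27.3% in myoblasts) and Col14a1 (41.9% in myotubes, 24.4% in myoblasts). It was lower in myotubes at the type I genes Col1a2 (46.0% in myotubes, 71.1% in myoblasts) and Col1a1 (34.3% in myotubes, 52.8% in myoblasts), at Col5a2 (4.70% in myotubes, 21.6% in myoblasts) and at Col8a1 (13.6% in myotubes, 29.0% in myoblasts). Domains were called in each library separately, with 70587 in myotubes and 66863 in myoblasts, so coverage moves with how much was called. The part of domain calling in these differences was not tested.

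**Figure D5:**
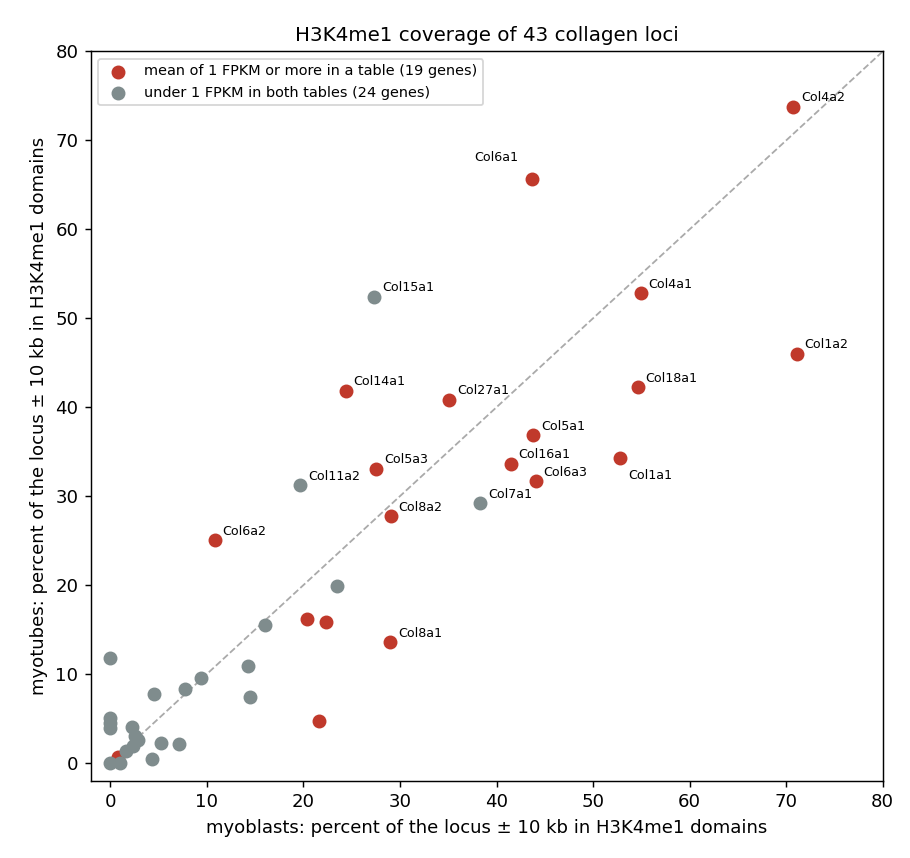
Percent of each collagen locus with its 10 kb flanks that lies in H3K4me1 domains, in myotubes (vertical axis) against myoblasts (horizontal axis), 1 point per gene and a dashed line of equality, 1 library per stage. The 19 genes kept in at least 1 table lie mostly at higher coverage than the other 24, with Col6a1 and Col15a1 above the line and Col1a2, Col1a1 and Col8a1 below it.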

How the data were processed

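The deposited FPKM values come as 2 tables, 1 per experiment, with 24333 coding sequences each, made by the authors, per the file headers. Their layout is that of a Cuffdiff comparison, but no header names the tool or its scaling, and TopHat and mm9 are named in the submitters' processing notes. Each table has 1 condition with a GFP name, which stands for the GFP control, and the other was assigned to DRRi or pHAN_DRR1.2 by elimination. The p-values and q-values of the coding sequences are the authors' own, deposited beside the FPKM. Per the file headers, the authors used MACS for MyoD and MyoG, and each peak carries their score of at least 60. The labels name 2 runs for each of these samples, and the sources used here do not say if they were pooled. H3K4me1 domains lie on 200 bp windows, with deposited counts of ChIP and control reads and the authors' ratio of them (SICER, per the submitters' processing notes).

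FPKM was summed per symbol with Python 3.11.15 and pandas 2.3.3. A pseudocount of 1, a mean of 1 FPKM or more and 1.5-fold were used. No p-value was computed, since each group held 1 library. Loci are those of the tables (mm9), counted from 1, and 152 symbols with several loci were left out of counts over loci. Peaks were assigned within 10 kb, so neighbours can share a peak. Col9a3 and Col10a1 have loci in the files much longer than in RefSeq. Col22a1 has a shorter one, 236 kb against 355 kb, so peaks elsewhere in that gene may not have been counted. Promoters of 35 members were matched by symbol to RefSeq GRCm38.p6. Those of Col1a1, Col2a1, Col4a3, Col5a2, Col9a3, Col12a1, Col14a1 and Col22a1 were not used here, nor were protein sequences. The steps were tested on simulated data. Genes named for expression were those past 1.5-fold or under the authors' q-value of 0.05, and the 8 of highest mean FPKM; for peaks, the 8 loci with the most, with ties. Several others were named after their values were seen. The members and lists were chosen with earlier results of these data known.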

Additional observations from a re-analysis of the deposited data

How the results depend on the processing

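No paired analysis was possible because each group held 1 library, and for the same reason no library could be left out. Of the values that answer a comparison, 91 stayed within 1.5 times the reported count, or within 0.005 of the reported median, under the alternatives tried (pseudocount 0.1, no filter on low values, a mean of 5 FPKM or more, the most abundant coding sequence alone, centring on the median of all genes, distances of 5 and 50 kb, assignment to the nearest locus alone, stricter peak scores or folds, a stricter overlap of shared peaks, and, added after seeing the data, 1 FPKM or more in each condition and leaving out Col9a3 and Col10a1), and 14 moved. For DRRi over GFPi, 1 collagen was higher and 0 were lower at a mean of 5 FPKM or more, and likewise 1 and 0 at 1 FPKM or more in each condition, against 2 and 2. The median log2 change of the collagens, -0.03, was -0.0044 without a filter, -0.0161 at a mean of 5 FPKM and also -0.0161 at 1 FPKM in each condition, and -0.0496 when centred. Of the processing enzymes 1 was higher at a mean of 5 FPKM, and of the receptors and regulators 1 was higher when centred, against 2 each. For pHAN_DRR1.2 over pHAN_GFP, 2 collagens were lower at a mean of 5 FPKM or more, against 4, and the median, -0.10, was -0.0075 without a filter, -0.12 when centred and -0.0487 at 1 FPKM or more in each condition. These filters remove weakly expressed genes by construction. Collagen loci with a peak in the upper part of the scores of its list numbered 23 for MyoG, 27 for MyoD in myotubes and 23 for MyoD in myoblasts, and those with a peak within 50 kb 41, 41 and 39, against 31, 36 and 33. The shares of all loci at these settings were not computed, so these counts do not set collagens apart from other loci. Changes at low FPKM rest on few fragments, and the sources used here give no read depth for them.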
